A study of Mus musculus with 4 samples.

Results

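The nuclear-encoded subunits of the mitochondrial respiratory chain and ATP synthase were followed in primary neural stem cells (NSCs) of the mouse, in 2 wild type and 2 Mettl4 knockout libraries of bulk RNA sequencing. Members were the protein-coding genes whose symbols begin with Ndufa, Ndufb, Ndufc, Ndufs, Ndufv, Uqcr, Cox4, Cox5, Cox6, Cox7, Cox8 or Atp5, together with Sdha, Sdhb, Sdhc, Sdhd and Cyc1, leaving out the Ndufaf assembly factors and pseudogene symbols. This gave 87 genes with 86 symbols among the 55414 genes in the files, of which 82 had enough counts to be tested. They fell into 36 genes of complex I, 4 of complex II, 9 of complex III, 20 of complex IV and 18 of complex V. The 5 untested genes, Cox4i2, Cox6a2, Cox7b2, Cox8c and Ndufa4l2, were all of complex IV.

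All 4 libraries came from cortex of mouse embryos at embryonic day 14.5. The cells of both genotypes were expanded as floating neurospheres with EGF and bFGF, passaged, and then grown as an adherent layer on poly-D-lysine. One group was wild type and the other carried the Mettl4 knockout; the labels used here give no account of how that allele was made. Mettl4 encodes an adenine methyltransferase. The labels do not say whether the 2 libraries of a group came from separate embryos or cultures, so p-values measure only how far these libraries lie apart, which may be technical variation.

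The respiratory chain moves electrons from NADH (complex I) and succinate (complex II) through ubiquinone, complex III and cytochrome c to oxygen at complex IV. Complexes I, III and IV pump protons across the inner mitochondrial membrane, and complex V, the ATP synthase, uses the gradient to make ATP. Most subunits are encoded in the nucleus and imported, and a small set is encoded in mitochondrial DNA. Neural stem cells rely strongly on glycolysis, and oxidative phosphorylation gains weight as they become neurons.

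Total counts were 12812064 (wild type library 1), 16883734 (wild type library 2), 18150389 (knockout library 1) and 19310668 (knockout library 2). Levels are given as CPM, counts scaled to the library size with TMM factors, which allow for differences in library composition. Mettl4 itself stood at 63.6 and 66.5 CPM in the wild type and at 15.6 and 17.5 CPM in the knockout, a log2 fold change of -1.97 (SE 0.17, edgeR adjusted p = 0.0051). It was the 1 gene of 19912 called at an adjusted p under 0.05, a share of 0.00502%. All 8 neural stem cell markers were measured, with summed levels from 4411 to 5493 CPM over the libraries. Neuronal markers summed to between 1020 and 1356 CPM (6 genes), oligodendrocyte lineage markers to between 1257 and 1407 CPM (6 genes) and astrocyte markers to between 328 and 474 CPM (5 genes). Map2 made up most of the neuronal sum (998 to 1333 CPM), and each other neuronal marker stood at 11.8 CPM or less. Olig1 (759 to 910 CPM) and Olig2 (439 to 508 CPM) made up most of the oligodendrocyte lineage sum. Sox10 stood at 0.527 and 1.34 CPM in the wild type and 3.21 and 2.51 CPM in the knockout, and Mbp at 1.22 CPM or less. The 5 mesenchymal markers summed to 9.49 and 7.12 CPM in the wild type and to 3.84 and 3.39 CPM in the knockout. Microglial (4.50 to 6.33 CPM, with Tmem119 at 0 counts in every library), endothelial (1.13 to 2.13 CPM) and blood markers (1.22 to 3.99 CPM) were low. The part of these cell types in the results below was not tested.

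No respiratory chain subunit passed the test: 0 of 82 were called, and the smallest adjusted p among them was 1.00 (edgeR quasi-likelihood test, Benjamini-Hochberg over all genes). Most had small negative values, 70 of 82 (85.4%) against 50.3% of all genes tested, and the median log2 fold change, knockout minus wild type, was -0.12 against -0.00 over all genes. At an unadjusted p under 0.05 stood 5 members (edgeR), all lower in the knockout (Ndufa8, Ndufv1, Ndufs6, Ndufs3 and Cox8a). That is 6.10% of the members, where 1.62% of all genes were lower and 2.77% were past that value in either direction. DESeq2 called 0 members (0.0301% of all genes) and limma-voom 0 (0.00502%), with 3 members (1.46% of all genes) and 4 members (2.75%) at an unadjusted p under 0.05. Both knockout libraries lay below both wild type libraries for 25 of 82 members (30.5%), against 14.8% of all genes. Among genes with a mean of at least 10 CPM this order held for 24 of 75 members and 13% of all such genes, and 67 of the 75 were negative against 47.5%. The reverse order, both knockout libraries above both wild type libraries, held for 1 tested member, Cox8b, against 12.5% of all genes.

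The libraries within a group differed by as much as the groups did. Relative to the wild type mean, the median member stood at -0.10 and 0.10 (log2) in wild type libraries 1 and 2 and at -0.25 and 0.04 in knockout libraries 1 and 2, while the median of all genes was within 0.02 of 0 in each. Wild type library 2 was the highest of the 4 for 53 members, and knockout library 1 was the lowest for 55. Against the wild type mean, 78 of 82 members were lower in knockout library 1 and 37 in knockout library 2. The median difference between the wild type libraries was 0.20, with 71 members higher in library 2, and between the knockout libraries 0.30, with 67 members higher in library 2. Of the 4 pairs across groups, the median was -0.39 for knockout 1 against wild type 2 and -0.14 against wild type 1. Knockout 2 stood at -0.07 against wild type 2 and at 0.16 against wild type 1, where 54 members were higher in the knockout library. Without knockout library 1 the fitted median over the members was 0.02, with 37 of 82 negative, and without wild type library 2 it was 0.0037, with 41 negative. Without wild type library 1 it was -0.21 (79 negative), and without knockout library 2 it was -0.26 (78 negative).

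**Figure D1:**
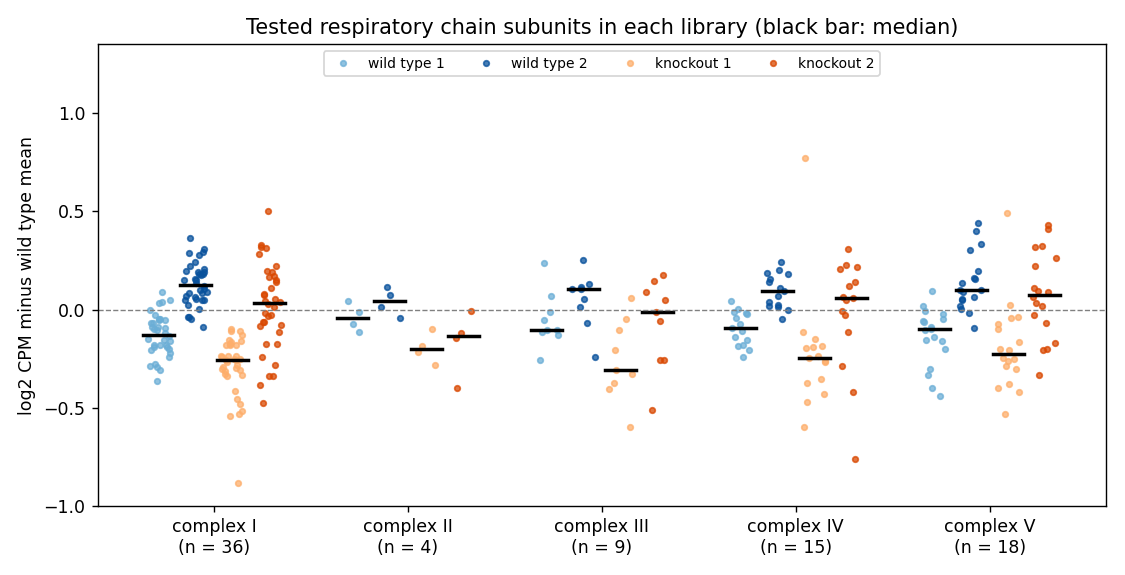
Each point is 1 tested subunit in 1 library, as log2 CPM minus the wild type mean of that gene, grouped by complex; black bars are medians over the subunits. Knockout library 1 has the lowest median in every complex and wild type library 2 the highest, with the complex II medians of both knockout libraries below those of both wild type libraries.

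Summed over all 87 members, the level was 10085 and 11187 CPM in the wild type and 9124 and 10492 CPM in the knockout, so the groups overlapped. As a share of all counts, with no scaling factor, the members made up 1.05% (exact 95% binomial interval 1.04 to 1.05) and 1.09% (1.08 to 1.09) of the wild type libraries. The shares were 0.955% (0.950 to 0.959) and 0.994% (0.990 to 0.999) in the knockout libraries, and on this scale the groups did not overlap. The intervals cover counting error only. With library totals alone, both knockout libraries lay below both wild type libraries for 28 members (34.1%), against 13.5% of all genes. In bulk RNA, fewer cells of a type and less RNA per cell cannot be told apart. An exact two-sided permutation test of 2 against 2 libraries cannot give a p below 0.333, so the sums are given as a description.

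The fit also gave an interval for each subunit. It bounds the difference between these libraries only, as separate embryos or cultures are not stated. The standard error of a member's log2 fold change had a median of 0.18 (range 0.14 to 0.58), against 0.25 over all genes. The 95% interval lay within 1.5-fold in either direction for 52 of 82 members and within 2-fold for 77. A 1.5-fold rise lay outside the interval for 74 members, and a 1.5-fold fall for 55.

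Promoter sequences are shown for 7 members. Ndufa8, Ndufs6, Ndufs3 and Cox8a are from the 5 members at an unadjusted p under 0.05 (edgeR), of which Ndufv1 is not shown. Sdha and Uqcrc1 are examples from complexes II and III and do not have the smallest p there. Cox8b is the 1 tested member with both knockout libraries above both wild type libraries. Respiratory chain genes are known for promoters bound by NRF1, by ETS-family factors such as GABP, and by YY1. Promoters of 250 bases before and 50 after the annotated start came from RefSeq (GRCm38.p6) and matched 67 of the 86 member symbols. The coordinates below are of that build, which is older than the GRCm39 build of the counts. Each sequence is written 5′ to 3′ along the gene's strand, in lower case, and capitals mark matches to the core GCGCANGCG (NRF1, N for any base), CCGGAAG (ETS/GABP), AAGATGGC (YY1) or the TATA box letters TATAAA, on either strand.
Ndufa8, chr2:36049289-36049588, minus strand: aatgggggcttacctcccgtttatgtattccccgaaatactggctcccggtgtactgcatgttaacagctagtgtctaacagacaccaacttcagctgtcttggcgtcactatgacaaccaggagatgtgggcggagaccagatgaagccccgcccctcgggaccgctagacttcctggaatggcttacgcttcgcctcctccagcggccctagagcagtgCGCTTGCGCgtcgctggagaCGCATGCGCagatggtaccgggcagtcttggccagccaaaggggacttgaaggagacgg
Ndufs6, chr13:73328433-73328732, minus strand: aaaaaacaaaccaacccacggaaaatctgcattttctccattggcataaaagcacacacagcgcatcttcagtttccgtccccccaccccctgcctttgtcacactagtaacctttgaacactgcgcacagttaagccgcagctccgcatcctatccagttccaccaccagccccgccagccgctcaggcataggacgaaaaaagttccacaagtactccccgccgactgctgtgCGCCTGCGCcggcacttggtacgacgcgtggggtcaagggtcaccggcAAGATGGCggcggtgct
Ndufs3, chr2:90904672-90904971, minus strand: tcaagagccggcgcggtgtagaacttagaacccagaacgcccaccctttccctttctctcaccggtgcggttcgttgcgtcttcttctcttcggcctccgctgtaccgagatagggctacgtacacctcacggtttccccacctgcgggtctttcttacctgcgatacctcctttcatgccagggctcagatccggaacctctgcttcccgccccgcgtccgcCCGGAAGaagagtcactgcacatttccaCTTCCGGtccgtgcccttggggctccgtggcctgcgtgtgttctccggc
Sdha, chr13:74350191-74350490, minus strand: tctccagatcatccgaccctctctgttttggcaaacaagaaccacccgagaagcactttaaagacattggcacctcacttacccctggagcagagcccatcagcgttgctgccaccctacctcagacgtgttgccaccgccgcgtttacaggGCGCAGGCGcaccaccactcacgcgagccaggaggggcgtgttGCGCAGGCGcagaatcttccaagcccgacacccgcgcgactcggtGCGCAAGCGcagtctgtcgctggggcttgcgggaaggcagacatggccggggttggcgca
Uqcrc1, chr9:108936398-108936697, plus strand: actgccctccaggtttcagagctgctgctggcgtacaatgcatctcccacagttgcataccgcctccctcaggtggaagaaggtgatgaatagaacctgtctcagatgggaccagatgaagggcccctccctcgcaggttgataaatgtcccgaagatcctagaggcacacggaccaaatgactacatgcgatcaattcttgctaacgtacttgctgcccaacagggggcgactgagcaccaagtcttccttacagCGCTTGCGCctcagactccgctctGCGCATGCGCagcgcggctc
Cox8a, chr19:7217567-7217866, minus strand: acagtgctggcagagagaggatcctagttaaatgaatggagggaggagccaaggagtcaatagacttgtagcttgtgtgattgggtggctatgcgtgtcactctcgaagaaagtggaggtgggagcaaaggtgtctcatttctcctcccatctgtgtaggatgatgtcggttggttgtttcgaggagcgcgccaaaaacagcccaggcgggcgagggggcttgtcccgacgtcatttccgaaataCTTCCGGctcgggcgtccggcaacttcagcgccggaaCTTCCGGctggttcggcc
Cox8b, chr7:140900397-140900696, minus strand: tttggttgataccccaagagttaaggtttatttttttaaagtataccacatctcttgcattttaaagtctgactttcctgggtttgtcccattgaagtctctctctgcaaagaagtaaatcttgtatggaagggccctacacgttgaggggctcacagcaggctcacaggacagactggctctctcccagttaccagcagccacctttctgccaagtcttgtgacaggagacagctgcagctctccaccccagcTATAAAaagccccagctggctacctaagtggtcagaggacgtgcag
Positions are counted from the annotated start as 1, with the base before it as -1. Ndufa8 held NRF1 matches at -29 to -21 and -9 to -1, and Ndufs6 held one at -15 to -7 and a YY1 match at 34 to 41. Ndufs3 carried ETS matches at -27 to -21 and 2 to 8, and Cox8a at -5 to 2 and 33 to 39. Sdha had 3 NRF1 matches, at -98 to -90, -55 to -47 and -10 to -2, and Uqcrc1 had them at 7 to 15, and on opposite strands at 31 to 39 and 32 to 40. Cox8b held none of the first 3 motifs and a TATAAA at 5 to 10.

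Over the 67 members with a promoter, 20 held the NRF1 motif (29.9%, against 7.03% of the 27025 genes in the table). The ETS motif stood in 16 (23.9% against 9.93%) and the YY1 motif in 9 (13.4% against 3.19%). At least 1 of these 3 was present in 37 members (55.2% against 17.8%), while TATAAA was present in 7 (10.4% against 15.7%). Every promoter printed above except that of Cox8b holds at least 1 of the 3, so the printed ones do not show how common the motifs are. A match is a run of letters and not a measured binding site.

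Complex I takes electrons from NADH. Its 36 members had a median log2 fold change of -0.12, and 30 were negative. In 10 (27.8%, against 14.8% of all genes) both knockout libraries were below both wild type libraries. The median was 0.04 without wild type library 2 and 0.02 without knockout library 1, and -0.23 and -0.27 without wild type library 1 and knockout library 2. Summed levels were 2341 and 2670.2 CPM in the wild type and 2094 and 2485 CPM in the knockout, which overlap. The 7 nuclear-encoded core subunits that carry electrons from NADH to ubiquinone and the 29 accessory subunits, which stabilise the complex, had near-equal medians (-0.11 and -0.12). They differed in how the libraries of a group lay to each other. Between the wild type libraries (2 minus 1) the core median was -0.07 and the accessory median 0.31, and between the knockout libraries -0.01 and 0.33. No test of that difference was made.

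Among the core subunits, Ndufv1, which binds the flavin that accepts electrons from NADH, stood at 80.1 and 76.1 CPM in the wild type and 65.5 and 56.1 CPM in the knockout, a log2 fold change of -0.36 (SE 0.15). Ndufs3, a core subunit of the matrix arm, stood at 74.3 and 74.7 CPM against 60.7 and 58.9 CPM (-0.32, SE 0.14). Ndufs7, which holds the last iron-sulfur cluster before ubiquinone, stood at 68.8 and 60.7 CPM against 54.3 and 49.6 CPM (-0.32, SE 0.15). In each of these both knockout libraries were below both wild type libraries. For Ndufv1 and Ndufs3 the distance between the groups in CPM was larger than the gap within either group. In log2 this did not hold for Ndufv1, with -0.216 for knockout 1 minus wild type 2 and -0.224 for knockout 2 minus knockout 1. Ndufs1, an iron-sulfur subunit near the flavin end, showed the same order with a smaller difference, 194 and 181 CPM against 175 and 174 CPM. The groups overlapped for the iron-sulfur subunits Ndufs8 and Ndufv2, which were named with Ndufs1 and Ndufs7 after their values were seen. They had positive values of 0.01 and 0.07, and that of Ndufs8 turned to -0.0030 with library totals alone. Ndufs8 stood at 51.2 and 58.1 CPM in the wild type and at 49.1 and 61.3 CPM in the knockout. Ndufv2 stood at 118 and 165 CPM against 123 and 174 CPM, so in both genotypes library 2 was the higher one.

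Among the accessory subunits, Ndufa8, which lies on the side of the intermembrane space, had the smallest p of all members. It stood at 67.1 and 72.2 CPM in the wild type (69.7 ± 3.63, SD, n = 2) and at 48.2 and 55.1 CPM in the knockout (51.7 ± 4.91, SD, n = 2), a log2 fold change of -0.43 (SE 0.15, 95% interval -0.76 to -0.10). Ndufs6, a zinc-binding subunit of the matrix arm, had the most negative value of the complex. Its levels were 25.7 and 32.9 CPM in the wild type and 15.7 and 23.9 CPM in the knockout, a log2 fold change of -0.57 (SE 0.23, interval -1.09 to -0.04). The libraries of Ndufs6 did not overlap, but wild type 1 and knockout 2 were separated by less than the gap within either group. Both knockout libraries also lay below both wild type libraries for Ndufa1, Ndufb2, Ndufb6 and Ndufab1, the mitochondrial acyl carrier protein, with log2 fold changes from -0.28 (Ndufa1) to -0.07 (Ndufab1). Ndufc2, of the membrane arm, had the highest level per kilobase of transcript in the complex, 292 CPM per kb in the wild type and 266 in the knockout. Its libraries overlapped, at 169 and 229.7 CPM against 161 and 202 CPM. Ndufb3, another subunit of the membrane arm, was higher in library 2 of both genotypes, at 8.44 and 12.6 CPM in the wild type and 7.06 and 14.6 CPM in the knockout; it too was named after its values were seen. Over the 29 accessory genes, wild type means ran from 5.54 CPM (Ndufa5) to 199.3 CPM (Ndufc2), and the 4 positive values, those of Ndufa5, Ndufa12, Ndufb3 and Ndufb4, were at most 0.06.

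Complex II, succinate dehydrogenase, belongs to both the citrate cycle and the respiratory chain, and has no subunit encoded in mitochondrial DNA. All 4 genes were negative, their median being -0.18 (log2). The libraries did not overlap, with the knockout lower, for 3 of 4 (75%, against 14.8% of all genes). The summed level was 701 and 744 CPM in the wild type (723 ± 30.0, SD, n = 2) and 629.5 and 649 CPM in the knockout (639 ± 13.9, SD, n = 2), so both knockout libraries were below both wild type libraries. The median was -0.13 both without wild type library 2 and without knockout library 1, and -0.22 and -0.20 without wild type library 1 and knockout library 2. Sdha, the flavin-containing catalytic subunit, stood at 226 and 250.2 CPM in the wild type and 209 and 215 CPM in the knockout (-0.17, SE 0.15). Sdhb, the iron-sulfur subunit, stood at 191 and 194 CPM against 159 and 177 CPM (-0.20, SE 0.15). For both catalytic genes the 95% interval lay within 1.5-fold in either direction. Sdhc, a membrane anchor, had the largest difference of the complex, at 145 and 137 CPM against 121 and 107 CPM (-0.30, SE 0.14, interval -0.62 to 0.01). Sdhd, the other anchor, overlapped between groups, at 139 and 163 CPM against 141 and 149.6 CPM.

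Complex III passes electrons from ubiquinol to cytochrome c. All 9 members were negative, with a median of -0.18 and a range of -0.22 to -0.08. The libraries did not overlap for 2, the nuclear-encoded electron carriers. That share of 22.2% is not far from the 14.8% of all genes with the knockout lower. The median was -0.05 without wild type library 2 and -0.04 without knockout library 1, and -0.20 and -0.31 without wild type library 1 and knockout library 2. Summed levels were 1145 and 1209.8 CPM in the wild type and 1025 and 1099 CPM in the knockout, without overlap. Uqcrfs1, the Rieske iron-sulfur protein, stood at 215 and 196 CPM in the wild type and 191 and 172 CPM in the knockout (-0.18, SE 0.15). Cyc1, cytochrome c1, stood at 109 and 111 CPM against 107 and 92.4 CPM (-0.15, SE 0.14). In both, knockout library 2 was the lowest of the 4, unlike most members. The core proteins face the matrix and support the complex. Of these, Uqcrc1 was higher in library 1 of both genotypes, at 167 and 119.9 CPM in the wild type and 148 and 99.2 CPM in the knockout, and its value of -0.22 (SE 0.22) lay within that spread. Uqcrc2 was higher in library 2 of both genotypes, at 223 and 267 CPM against 211 and 252 CPM (-0.08, SE 0.17). The 5 small subunits had values between -0.21 and -0.09, and their groups all overlapped. Uqcr10, the highest of the complex per kilobase (361 CPM per kb in the wild type, 312 in the knockout), stood at 145 and 168 CPM against 121 and 150.1 CPM (-0.21, SE 0.16). Uqcrh, the hinge protein that contacts cytochrome c1, and Uqcr11 were both lowest in knockout library 1. Uqcrh stood at 167 and 192 CPM against 145 and 191 CPM, and Uqcr11 at 32.1 and 37.6 CPM against 22.9 and 38.4 CPM. Uqcrc2, Uqcrh and Uqcr11 were named after their values were seen.

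**Figure D2:**
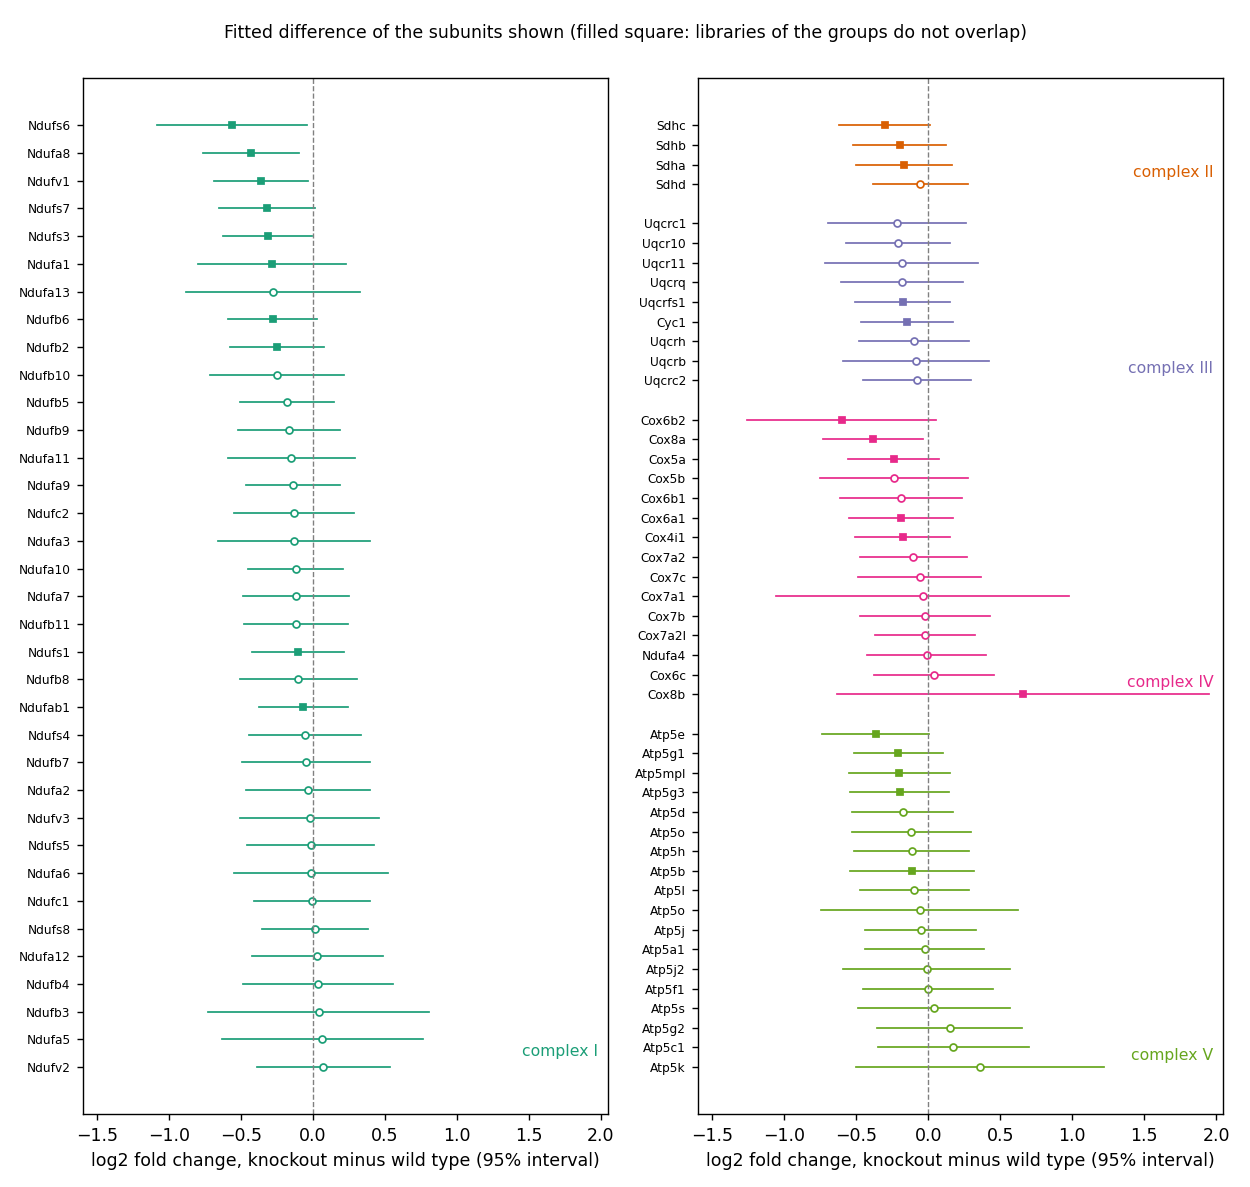
Fitted log2 fold change, knockout minus wild type, of the subunits shown, each with its 95% interval, by complex and in order of size; filled squares mark genes whose libraries do not overlap between the groups. Most points lie left of 0, and 5 intervals, those of Ndufs6, Ndufa8, Ndufv1, Ndufs3 and Cox8a, leave out 0; Atp5o appears for each of its gene identifiers.

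Complex IV, cytochrome c oxidase, reduces oxygen around a catalytic core encoded in mitochondrial DNA. Its nuclear-encoded subunits come partly as isoforms that are known to differ between tissues. Here Ndufa4, an oxidase subunit despite its symbol, and its relative Ndufa4l2 were counted with this complex. Of 15 tested members 13 were negative (median -0.11). The libraries did not overlap for 5 in the lower direction (33.3%, against 14.8% of all genes). In the higher direction this held for 1, against 12.5% of all genes. Without wild type library 2 the median was 0.03 and without knockout library 1 it was 0.05, against -0.24 and -0.25 without wild type library 1 and knockout library 2. Summed levels overlapped, at 1804 and 2064 CPM in the wild type and 1586 and 1876 CPM in the knockout.

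Cox8a, the common form of the smallest subunit, was the most abundant oxidase gene per kilobase and had the smallest p of the complex. It stood at 356 and 366 CPM in the wild type (361 ± 6.79, SD, n = 2) and at 283 and 270.0 CPM in the knockout (277 ± 9.43, SD, n = 2), a log2 fold change of -0.39 (SE 0.16, interval -0.73 to -0.04). The gap between the groups was larger than that within either group. Cox5a, a subunit on the matrix side, also separated, at 142 and 156 CPM against 130.0 and 122 CPM (-0.24, SE 0.14). Cox4i1, the common form of subunit 4, stood at 221 and 220.1 CPM against 186 and 204 CPM (-0.18, SE 0.15). Cox6a1 separated by little, at 61.8 and 62.7 CPM against 48.0 and 61.1 CPM (-0.19, SE 0.16). Cox6b1, which lies where oxidase dimers meet, overlapped, at 202 and 235 CPM against 157 and 226 CPM (-0.19, SE 0.19). Cox7a2, Cox7b, Ndufa4 and the supercomplex-associated Cox7a2l had values between -0.11 (Cox7a2) and -0.01 (Ndufa4, whose sign turned with median-ratio factors, at 0.0018), and for each of them wild type library 2 was above wild type library 1 and knockout library 2 above knockout library 1. Cox5b, Cox7c and Cox6c, the other broadly expressed subunits, had values of -0.24, -0.06 and 0.04, and their groups overlapped.

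Among the isoform families, compared per kilobase of the principal transcript, the broadly expressed form exceeded the tissue form by far in every library. Cox4i1 averaged 288 CPM per kb in the wild type and 254 in the knockout, against 0.652 and 0.256 for Cox4i2, the form known from lung and low oxygen. Cox4i2 had only 3, 12, 4 and 3 counts in wild type 1 and 2 and knockout 1 and 2, and its ratio of knockout to wild type was 0.372 (95% counting interval 0.128 to 0.969), resting on wild type library 2. Cox8a averaged 657 and 503 CPM per kb against 1.41 and 2.23 for Cox8b, the form of heart, muscle and brown fat. Cox8b had 7 and 8 wild type counts and 18 and 12 knockout counts, a log2 fold change of 0.66 (SE 0.58, interval -0.63 to 1.95). The 5 markers of brown fat and muscle summed to 38.8 and 38.3 CPM in the wild type, against 37.8 and 27.2 CPM in the knockout, mostly from Ttn, with Ucp1 at 0.421 CPM or less and Ckm at 0.753 CPM or less in every library. Of the same markers, Myh7 was higher in both knockout libraries, at 1.88 and 1.16 CPM against 2.16 and 2.08 CPM. Actc1 overlapped, at 6.25 and 3.23 CPM against 4.74 and 3.50 CPM. The part of these markers in the Cox8b values was not tested. Cox6b1 averaged 353 and 309.7 CPM per kb against 7.58 and 4.99 for Cox6b2, the form known from testis. Cox6b2 stood at 4.37 and 4.50 CPM in the wild type and 3.27 and 2.57 CPM in the knockout without overlap, and its log2 fold change of -0.60 (SE 0.30) was the most negative of all members.

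Cox7a2 averaged 359 and 334 CPM per kb and Cox7a2l 165 and 163, against 2.79 and 2.73 for the muscle form Cox7a1. Cox6a1 averaged 109 and 95.6 CPM per kb, while the muscle form Cox6a2 had 6, 0, 4 and 4 counts; the count of 0 in wild type library 2 allows up to 0.183 CPM. Cox7b averaged 133 and 131 CPM per kb, and its testis relative Cox7b2 had 0 counts in all 4 libraries, as did Cox8c. A count of 0 allows up to 0.226 and 0.183 CPM in the wild type and 0.158 and 0.164 CPM in the knockout libraries (3 counts each). Ndufa4 averaged 138 and 137 CPM per kb, against 0.105 and 0.489 for Ndufa4l2, which is known to rise in low oxygen. Ndufa4l2 had 1 and 2 wild type counts and 8 and 9 knockout counts, a ratio of 4.51 with a counting interval of 1.31 to 24.0, and did not pass the filter. That interval covers counting error only and not the spread between cultures.

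**Figure D3:**
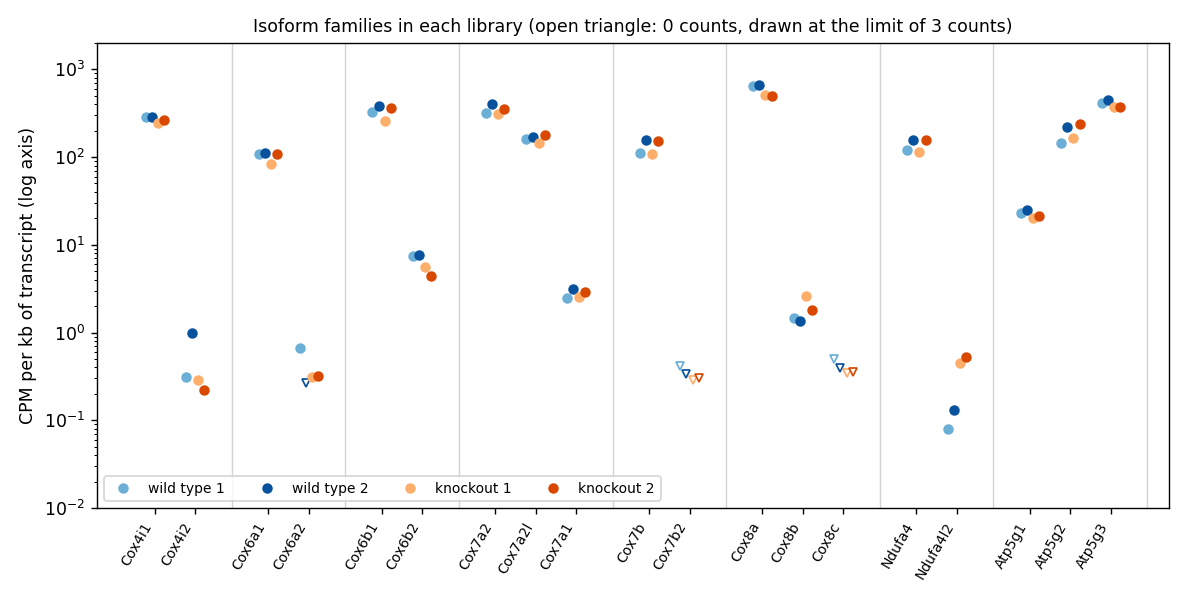
Level of each member of the isoform families in each library, in CPM per kilobase of the principal transcript on a log axis; open triangles stand for 0 counts, drawn at the limit of 3 counts. The broadly expressed oxidase forms lie between 84.1 (Cox6a1 in knockout library 1) and 666 (Cox8a in wild type library 2) CPM per kb, and the tissue forms of the oxidase reach at most 7.70 (Cox6b2 in wild type library 2).

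Complex V, the ATP synthase, holds the members with the highest CPM. Of its 18 genes 14 were negative (median -0.08). The libraries did not overlap for 5, all in the lower direction (27.8%, against 14.8% of all genes). Without wild type library 2 the median was 0.04 and without knockout library 1 it was 0.07, against -0.15 and -0.23 without wild type library 1 and knockout library 2. Summed levels were 4093 and 4499.8 CPM in the wild type and 3789.5 and 4383 CPM in the knockout, which overlap. In the F1 head, Atp5b, the catalytic beta subunit, was the highest member in CPM and the highest of the complex per kilobase (593 CPM per kb in the wild type, 547 in the knockout). It stood at 1132 and 1140 CPM in the wild type and 1013 and 1085 CPM in the knockout (-0.12, SE 0.19). Atp5a1, the alpha subunit that alternates with beta, overlapped at 929 and 908 CPM against 874 and 931 CPM (-0.03, SE 0.19). The rotating stalk of the head held subunits with opposite signs. Atp5c1, the gamma subunit, stood at 182 and 289.5 CPM against 223 and 309 CPM (0.17, SE 0.24), with library 2 the higher in both genotypes. Atp5d, the delta subunit, stood at 143 and 126 CPM against 131 and 107 CPM (-0.18, SE 0.16), with library 1 the higher in both. Atp5e, the epsilon subunit, had the smallest p of the complex, at 70.8 and 85.6 CPM against 53.9 and 67.6 CPM (-0.37, SE 0.17), where both knockout libraries were below both wild type libraries. Atp5a1, Atp5c1 and Atp5d were named after their values were seen, to complete the head.

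The proton-carrying c ring is made of a protein encoded by 3 genes that differ in their import signals. Atp5g3, the highest of the 3 per kilobase (431 CPM per kb in the wild type, 376 in the knockout), stood at 299.6 and 324 CPM against 272 and 272 CPM (-0.20, SE 0.15). Atp5g1 stood at 109 and 116 CPM against 94.7 and 100.3 CPM (-0.21, SE 0.14), again without overlap. Its level per kilobase, 23.9 and 20.7, rests on a principal transcript of 4715 bases, the longest among the members. Atp5g2 overlapped and was positive, at 106 and 161 CPM against 122 and 174 CPM (0.15, SE 0.22). The share of this family's level per kilobase taken by Atp5g2 was 24.8% and 31.7% in the wild type, against 29.6% and 37.4% in the knockout. The genes of the peripheral stalk, which holds the head still, all had negative values, between -0.12 and -0.00, and 0 of 5 separated. One of them, Atp5o, is listed under a pair of overlapping gene identifiers, with means of 281 and 259 CPM for the first and 14.0 and 13.5 CPM for the second. Of the small membrane subunits, Atp5mpl barely separated, at 92.9 and 95.7 CPM against 71.6 and 92.6 CPM (-0.20, SE 0.16). Atp5k, also named after its values were seen, was the lowest tested gene of the complex, at 1.28 and 2.31 CPM against 2.48 and 2.19 CPM (0.36, SE 0.39). The other small membrane genes, Atp5l and Atp5j2, and Atp5s, a related factor, had values of -0.10, -0.01 and 0.04, and their groups overlapped.

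The 13 subunits encoded in mitochondrial DNA, the partners of these proteins, had 7 negative and 6 positive values (median -0.02), and 0 were called. Library medians were -0.25 and 0.25 in the wild type, against -0.29 and 0.40 in the knockout, the same order of libraries within each group as for the nuclear members and a wider spread. At an unadjusted p under 0.05 (edgeR) stood 5 of 13, against 2.77% of all genes. Values over the 13 ran from -1.20 to 0.60. Both knockout libraries lay below both wild type libraries for 4 (14.8% of all genes) and above for 1 (12.5%). Only the 3 with the smallest p are given here. mt-Nd6, the complex I subunit encoded on the opposite strand, stood at 268 and 249 CPM in the wild type and 134 and 91.3 CPM in the knockout (-1.20, SE 0.19, edgeR adjusted p = 0.80). mt-Nd2 was at 192 and 184 CPM against 107 and 138 CPM (-0.62, SE 0.16, adjusted p = 1.00), and mt-Atp8 at 35.0 and 32.4 CPM against 22.8 and 18.3 CPM (-0.72, SE 0.19, adjusted p = 1.00). How strand was treated in the counting is not stated in the sources at hand, and mt-Nd6 and mt-Atp8 overlap other mitochondrial transcripts, so their reads may not be separable.

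Of 45 assembly factors matched of 46 listed, which build the complexes without staying in them, 31 were negative and 14 positive (median -0.04) and 0 were called. Foxred1, for complex I, stood at 42.3 and 41.7 CPM against 33.4 and 31.0 CPM (-0.38, SE 0.16), and Cox14, for complex IV, at 59.4 and 60.6 CPM against 45.3 and 49.5 CPM (-0.34, SE 0.15). Sdhaf3, for complex II, was in the other direction, at 8.66 and 9.25 CPM against 13.0 and 12.8 CPM (0.52, SE 0.22). Of 14 regulators of respiratory genes 5 were negative and 9 positive (median 0.02), and 0 were called. Ppargc1a, the coactivator PGC-1alpha, stood at 74.0 and 96.3 CPM in the wild type and 64.9 and 62.6 CPM in the knockout (-0.42, SE 0.16, adjusted p = 1.00). Gabpa and Yy1, whose motifs were searched above, had values of 0.14 (SE 0.16) and 0.16 (SE 0.18).

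Enzymes of the citrate cycle and of pyruvate entry, which supply the electrons, were negative for 22 of 25 genes (median -0.14, 0 called), and the library medians were -0.02 and 0.02 in the wild type, against -0.14 and -0.12 in the knockout. Mdh2, malate dehydrogenase, stood at 212 and 196 CPM against 179 and 139.7 CPM (-0.36, SE 0.16). Pdk1 and Pdk2, kinases that restrain pyruvate dehydrogenase, had opposite signs. Pdk1 was at 10.5 and 7.97 CPM against 11.9 and 39.6 CPM (1.48, SE 0.54), resting on knockout library 2, and Pdk2 at 4.44 and 4.56 CPM against 2.79 and 2.84 CPM (-0.68, SE 0.29). Electron carriers and shuttles were negative for 18 of 22 (median -0.11, 0 called), with Etfb, of the electron transfer flavoprotein, at -0.39 (SE 0.18).

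Other large sets of short, abundant transcripts are shown beside the members as a description. Cytosolic ribosomal protein genes (80 tested) were positive for 76, with a median of 0.14. Their library medians were -0.11 and 0.11 in the wild type, against -0.16 and 0.40 in the knockout, so the order of libraries within a group was that of the respiratory chain members, and the sign of the median was opposite. Mitochondrial ribosomal protein genes (77 tested, 41 negative, median -0.01) and proteasome subunits (36 tested, 10 negative, median 0.05) had the same order within groups, and 0 genes were called in any of the 3 sets. Over the 82 members, the difference between libraries had a Spearman rho with principal transcript length of -0.23 in the wild type (2 minus 1) and -0.33 in the knockout (2 minus 1), while the log2 fold change between genotypes had one of 0.04. With GC content the same values were -0.23, -0.21 and -0.23. These correlations are across genes that share libraries, and genes are not independent replicates.

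**Figure D4:**
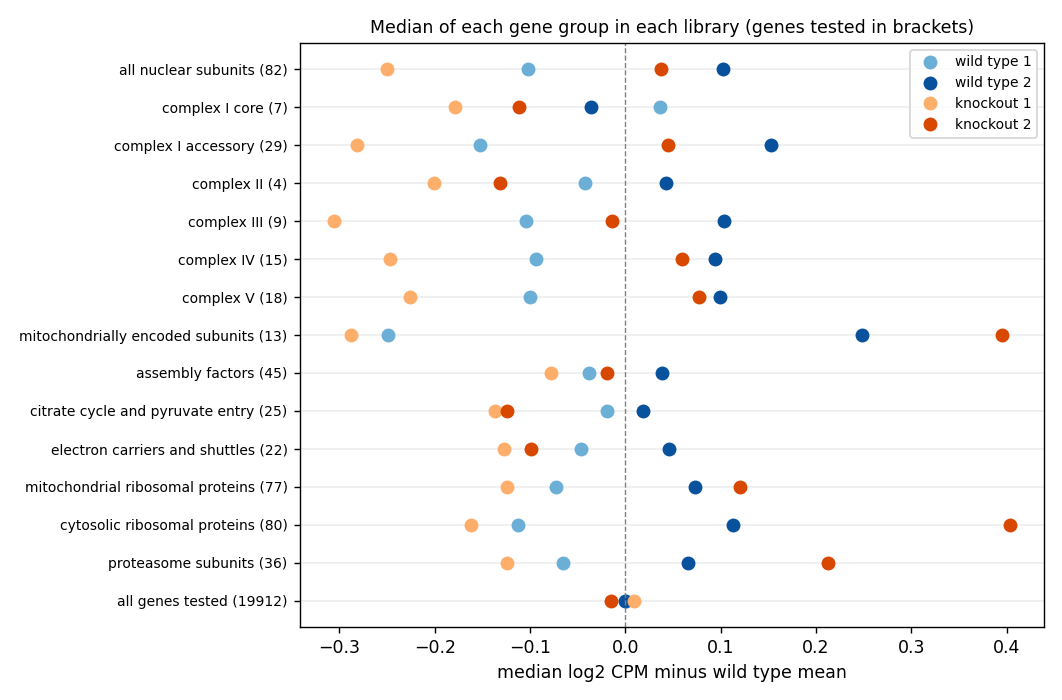
Median log2 CPM minus the wild type mean over the tested genes of each group (rows), in each library (colours). Library 2 lies right of library 1 in both genotypes for most rows. The exceptions are complex I core in the wild type and all genes tested in both genotypes. Both knockout libraries lie left of both wild type libraries for complex I core, complex II, the citrate cycle and the electron carriers.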

How the data were processed

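RNA of primary neural stem cells was measured in 2 libraries of each genotype, grouped by the titles in the labels. The deposited values are whole-number counts of reads per Ensembl gene, not normalised. The submitters' processing notes name GRCm39, STAR 2.7.10 and featureCounts. Settings for strand and for multiple matches are not stated in the sources at hand, and counts of genes with near-identical, overlapping or antisense copies are uncertain.

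Symbols and gene types came from GENCODE M21, an annotation of an earlier build, used for names, transcript lengths and GC content only (52133 of 55414 identifiers, 94.1%, had a symbol). Genes were filtered with filterByExpr (minimum count 10), which left 19912, and CPM used TMM factors of 1.04 and 0.973 (wild type) and 1.05 and 0.948 (knockout). The genotypes were compared with edgeR 4.0.16 under R 4.3.3 (glmQLFit, robust=TRUE), with Benjamini-Hochberg adjustment over all genes and a call under 0.05. The common dispersion was 0.0272. Library values in log2 used a prior count of 2. Replicates were compared for duplicate deposits by chi-square per degree of freedom, 16.6 (wild type) and 26.3 (knockout), which is above sampling noise.

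Alternatives were other scaling factors and filters, DESeq2 1.42.0, limma-voom (limma 3.58.1), robust=FALSE, protein-coding genes only, the replicate number as a block, GC trend removal, each library left out and, added after seeing the data, length trend removal (splines with 5 degrees of freedom). The members and lists were chosen with earlier results of these data known. Named members are up to 4 per complex with the smallest p (2 in complex II), the highest per kilobase, the isoform families, complex II and Cyc1; from other lists up to 3 with the smallest p are named. Some others are marked in the text as chosen after their values were seen. Further subunits, such as Ndufa1, Ndufb2, Cox5b and Atp5l, are named without that mark to account for the other members. They are not among the named members whose sign changes are given below. Values of 1 tested member are not reported here, although it is part of the counts, sums and medians.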

Additional observations from a re-analysis of the deposited data

How the results depend on the processing

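No member was called in any of the 19 fits (the main one and 18 alternatives), and the median log2 fold change over the members lay between -0.13 and -0.09 in the alternatives that kept all 4 libraries. The number of genes called among all genes was 1 and became 41 with no low-count filter, 6 with DESeq2, and between 1 and 47 with 1 library left out. Members at an unadjusted p under 0.05 were 5 and became 3 with DESeq2, 3 with the GC trend removed, 3 with the length trend removed (added after seeing the data), and between 0 and 7 with 1 library left out. These fits keep the same genes, and the lone library of a group is assumed to vary like the others. Negative members were 70 and ran from 37 (without knockout library 1) to 79 (without wild type library 1). The median of complex II ran from -0.22 to -0.13.

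The replicate numbers are not stated to pair the libraries, and with 2 pairs this cannot be settled: deviations of same-numbered libraries correlated at 0.23 over all genes and 0.61 over the members. With the replicate number as a block, 9 genes were called, 73 with the GC trend removed as well and 81 with the length trend removed as well. Members at an unadjusted p under 0.05 were 15, 12 and 12, and 0 members were called in each. The share of all genes past that value in these fits is not given here. The member counts therefore cannot be read as particular to the members.

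Of 773 alternative values for 43 named members, 730 kept their sign and 43 changed it. With 4 libraries, the changes were Cox7a2l (0.0024), Cox7a1 (0.00056) and Atp5a1 (0.021) with the GC trend removed, and Cox7a1 (0.016) and Atp5a1 (0.017) in the replicate block with the GC trend removed. They were Cox7b (0.00087) and Ndufa4 (0.012) with the length trend removed, and Ndufa4 (0.0061) in the replicate block with that trend removed. Ndufa4 also changed with RLE factors (0.0018) and DESeq2 (0.0022), Ndufs8 with library totals alone (-0.0030), and Ndufb3 with limma-voom (-0.041). The cause was not tested. With 1 library left out, signs changed for the members that follow, each with its lowest and highest log2 fold change. In complex I these were Ndufc2 (-0.34 to 0.12), Ndufs8 (-0.16 to 0.16), Ndufv2 (-0.20 to 0.35) and Ndufb3 (-0.58 to 0.47). In complexes II and III they were Sdhd (-0.17 to 0.074), Uqcrc1 (-0.53 to 0.043), Uqcrc2 (-0.21 to 0.069), Uqcrh (-0.31 to 0.087) and Uqcr11 (-0.60 to 0.14). In complex IV they were Cox6b1 (-0.47 to 0.045), Cox7a2 (-0.25 to 0.072), Cox7a2l (-0.18 to 0.12), Cox7a1 (-0.18 to 0.14), Cox7b (-0.29 to 0.25) and Ndufa4 (-0.25 to 0.19). In complex V they were Atp5g2 (-0.13 to 0.50), Atp5a1 (-0.072 to 0.018) and Atp5c1 (-0.12 to 0.56).

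Depth limits the members under 1 CPM, whose counts were at most 18 in a library.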

Other observations

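Genes of the oxygen response, which neighbour the respiratory chain in function, had a median of 0.06 over 15 tested of 16, with 9 positive, 6 negative and 0 called. At an unadjusted p under 0.05 (edgeR) stood 4 of 15, against 2.77% of all genes. Values over the 15 ran from -0.50 to 1.12. Both knockout libraries lay above both wild type libraries for 6 (12.5% of all genes) and below for 3 (14.8%). Only the 3 with the smallest p are given here, all of them higher in the knockout. Egln3, a prolyl hydroxylase that marks HIF for destruction, stood at 15.3 and 14.8 CPM in the wild type and 22.1 and 28.8 CPM in the knockout (log2 fold change 0.76, SE 0.21, edgeR adjusted p = 1.00). Pfkl, a phosphofructokinase of glycolysis, stood at 22.6 and 16.2 CPM against 28.0 and 50.8 CPM (1.02, SE 0.28), and Bnip3, a mitophagy receptor, at 13.0 and 13.4 CPM against 16.9 and 40.5 CPM (1.12, SE 0.36). For Egln3, Pfkl and Bnip3 knockout library 2 stood above knockout library 1, as it did for Pdk1. Library medians over the 15 were 0.02 and -0.02 in the wild type, against -0.01 and 0.25 in the knockout. The positive median of the list thus rested on knockout library 2.

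The rule left out 13 copies of member genes with pseudogene annotation or a -ps symbol. Of these, 5 had 0 counts in all libraries. Ndufb4c was the highest, at 23.3 and 34.1 CPM in the wild type and 26.4 and 33.5 CPM in the knockout, next to Ndufb4, whose means were 46.6 and 47.8 CPM. Whether reads of one were counted for the other was not tested. Ndufb1-ps stood at 7.98 and 10.3 CPM against 8.27 and 9.78 CPM, and Atp5l2-ps at 7.23 and 8.03 CPM against 3.37 and 8.52 CPM.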
